A study of Homo sapiens with 6 samples.

Results

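The genes described here are 10 regulators of the passage from G1 into S phase, chosen by name from the 60499 Ensembl gene IDs listed for the H1 line of human embryonic stem cells, a long-established line. They are the D cyclins CCND1, CCND2 and CCND3, the E cyclins CCNE1 and CCNE2, the cyclin-dependent kinases CDK2, CDK4 and CDK6, and the CDK inhibitors CDKN1B and CDKN2C. All 10 symbols matched a listed ID. The H1 cells, with no genetic change named in the labels, were grown for 4 days in Nutristem medium on recombinant laminin-521 alone (LN-521) or on laminin-521 mixed with laminin-221, here LN-521+LN-221. Laminins are heterotrimeric basement membrane proteins to which cells attach through integrins and other receptors. Each coating had 3 wells, each sequenced as total RNA in its own library, so that p-values measure the spread between wells of 1 line.

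D cyclins bind CDK4 and CDK6, and E cyclins bind CDK2. These kinases phosphorylate the RB proteins, which releases E2F factors to switch on genes of DNA replication. CDKN1B (p27) belongs to the CIP/KIP inhibitors, which bind cyclin-CDK complexes, and CDKN2C (p18) to the INK4 inhibitors, which bind CDK4 and CDK6. Embryonic stem cells are known for a short G1 phase and for low levels of several CDK inhibitors.

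Library totals ran from 20606494 to 26836727 estimated counts, with a biological coefficient of variation of 7.03% between wells. The defining pluripotency genes were abundant in every library, the 8 pluripotent stem cell markers summing to 2729 to 3064 TPM (transcripts-per-million, a length-corrected level) on LN-521 and 2657 to 2855 TPM on LN-521+LN-221. Of these 8 markers, NANOG, TDGF1 and POU5F1 were lower and LIN28A higher on LN-521+LN-221 at an adjusted p-value under 0.05. The 7 mesendoderm markers summed to at most 1.15 TPM in any library and none had enough counts to be tested. None of the 8 tested markers of neuroectoderm, mesenchyme or trophoblast passed the threshold, and 1 of them, COL1A1, had an unadjusted p under 0.05 (edgeR adjusted p = 0.0724). Summed levels were 62.9 to 70.9 against 70.9 to 72.0 TPM for the 5 neuroectoderm markers, 79.0 to 92.5 against 83.1 to 98.9 TPM for the 6 mesenchyme markers (LUM was at 0 in all libraries), and 12.9 to 16.1 against 12.7 to 14.6 TPM for the 5 trophoblast markers. The part of these marker levels in the results below was not tested. The 3 LN-521 wells were spread along the second principal component, at 17.9, -13.3 and 0.45 for replicates 1 to 3. Replicate 1 lay highest, and results without it are given where they differ.

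Cyclin D1 was the member that differed between the coatings. CCND1 transcripts were 1.59-fold higher on LN-521+LN-221 (95% interval 1.43 to 1.77), while the other D cyclins, the E cyclins, the kinases and p27 did not pass the threshold. The D-cyclin transcripts thereby held a larger share of CCND1 and a smaller share of CCND2. Of the 10 members, 9 had enough counts to be tested with edgeR's quasi-likelihood test, and 1 of the 9 (11.1%) passed an adjusted p-value of 0.05. Over all 17608 genes tested 2.53% passed, 1.4% higher and 1.14% lower on LN-521+LN-221. The members and the pathway lists below were chosen with earlier results of these data known. Their shares are therefore not those of an unbiased sample of genes. The median log2 fold change of the 9 members was -0.03, and that of all genes tested was -0.0011.

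**Figure D1:**
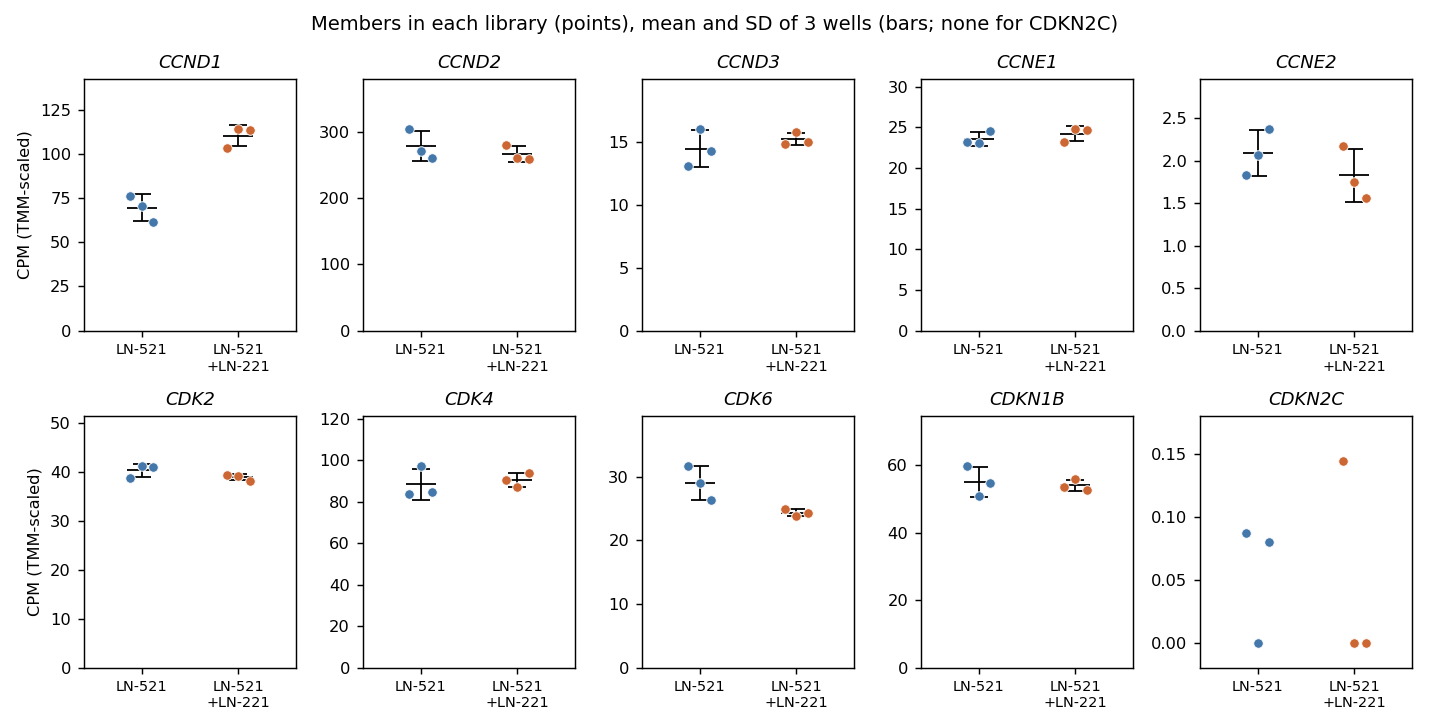
Counts-per-million values (CPM, TMM-scaled, y axis, each panel with its own scale) of the 10 members in each library (points, replicates 1 to 3 from left to right) with the mean and SD of 3 wells, for LN-521 (blue) and LN-521+LN-221 (orange). CCND1 lies between 61.5 and 76.4 CPM on LN-521 and between 103 and 114 CPM on LN-521+LN-221, CDK6 is the other tested member without overlap, and CDKN2C is at or near 0 in every library.

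CCND1 (ENSG00000110092, protein coding, chromosome 11, 69641087 to 69654474, plus strand, GENCODE 29 on GRCh38) encodes cyclin D1. Its expression was 76.4, 70.6 and 61.5 CPM in the 3 wells on LN-521 and 103, 114 and 114 CPM in the 3 wells on LN-521+LN-221. Every LN-521+LN-221 well was above every LN-521 well. The means were 69.5 ± 7.50 and 110.3 ± 5.90 CPM (SD, n = 3 each). On the log2 scale the difference was 0.67 ± 0.07 (SE; edgeR adjusted p = 3.68e-05). In these bulk libraries more cells with the transcript and more transcript per cell cannot be told apart. By p-value CCND1 ranked 30 among the 17608 genes, and by fold change it ranked 82 among the 246 genes that were higher on LN-521+LN-221.

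The length-corrected values gave the same separation. The authors' TPM for CCND1 were 17.2, 16.0 and 12.5 on LN-521 against 25.8, 23.9 and 24.8 on LN-521+LN-221. Tested with limma on log2(TPM + 1), the difference was 0.68 on that scale but did not pass the threshold (limma adjusted p = 0.114), nor did it with log2(TPM + 0.1) (0.71, limma adjusted p = 0.211). In the 6 edgeR fits that each left out a library, the log2 fold change stayed between 0.59 and 0.74 and the adjusted p-value between 1.32e-07 and 9.33e-04. The counts of CCND1 were whole numbers in all libraries, with no fraction of a read assigned to it. Its exons overlap those of LTO1 on the other strand by 497 bases, and the strand setting of the counting is not given in the sources used here. LTO1 had 175 to 222 counts per library against 1533 to 2688 for CCND1, and its log2 fold change was 0.04 ± 0.11 (SE; edgeR adjusted p = 0.921).

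CCND2 (ENSG00000118971, chromosome 12, 4273772 to 4305350, plus strand) encodes cyclin D2 and was the most abundant D cyclin. It stood at 304, 271 and 262 CPM on LN-521 and at 280, 260 and 260 CPM on LN-521+LN-221, so the coatings overlapped. The log2 fold change was -0.07 ± 0.06 (SE; 95% interval -0.19 to 0.06; edgeR adjusted p = 0.685). CCND3 (ENSG00000112576, chromosome 6, 41934933 to 42050357, minus strand), which encodes cyclin D3, was at 13.1, 16.0 and 14.2 CPM on LN-521 and 14.8, 15.7 and 15.0 CPM on LN-521+LN-221. Its difference of 0.07 ± 0.10 (SE; 95% interval -0.13 to 0.28; edgeR adjusted p = 0.802) was within the spread of the wells. The upper ends of both intervals lie below the lower end of the CCND1 interval, 0.51.

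Per transcript length, CCND2 was the highest D cyclin on both coatings and CCND1 the second. CCND1 made up 25.8%, 28.9% and 24.1% of the summed D-cyclin TPM on LN-521 against 36.2%, 36.4% and 38.4% on LN-521+LN-221, a mean of 26.2% ± 2.40 against 37.0% ± 1.2 (SD, n = 3 each). The share of CCND2 was 62.2% ± 3.32 on LN-521 and 52.1% ± 1.66 on LN-521+LN-221 (mean ± SD, n = 3 each), again without overlap. CCND3 held 11.5% ± 1.64 and 10.9% ± 1.03 (SD, n = 3 each), which overlapped. The ratio of CCND1 to CCND2 estimated counts, which depends on no scaling between libraries, was 0.251, 0.260 and 0.235 on LN-521 against 0.369, 0.438 and 0.437 on LN-521+LN-221. Summed over the family, D-cyclin TPM were 66.9, 55.3 and 51.7 on LN-521 against 71.2, 65.8 and 64.6 on LN-521+LN-221, with LN-521 replicate 1 inside the range of the other coating. These shares and sums describe the wells and were not tested.

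**Figure D2:**
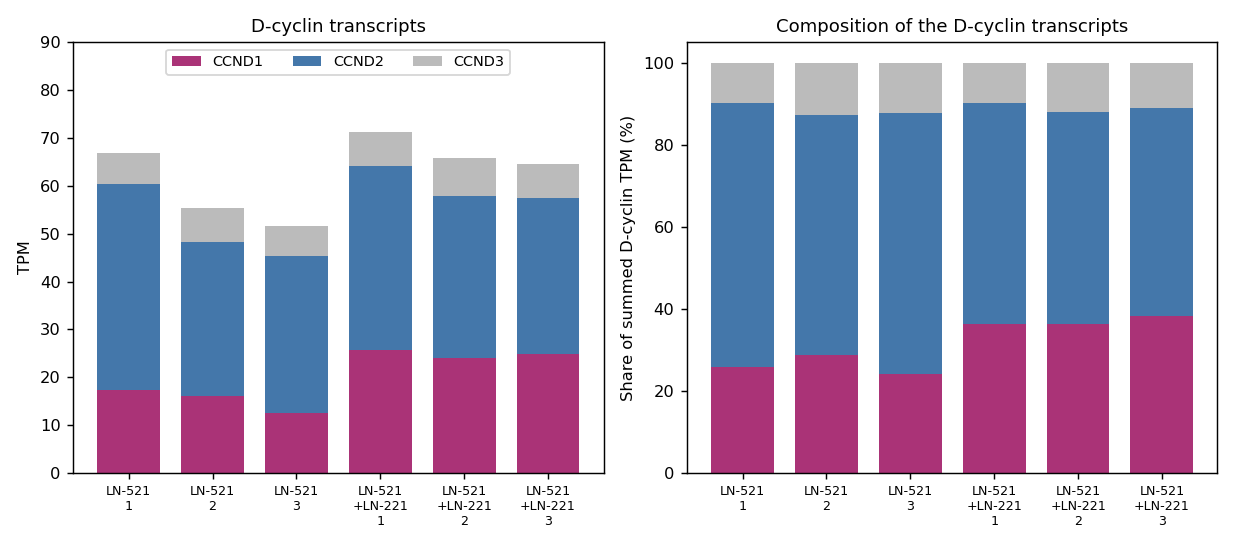
Left, TPM of CCND1, CCND2 and CCND3 stacked for each library. Right, the same as percent of their sum. CCND1 takes 24.1% to 28.9% of the D-cyclin TPM in the 3 LN-521 wells and 36.2% to 38.4% in the 3 LN-521+LN-221 wells.

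Among the E cyclins, which activate CDK2 late in G1, CCNE1 (ENSG00000105173, chromosome 19, 29811898 to 29824308, plus strand) carried nearly all of the transcript. It was 23.2, 23.0 and 24.6 CPM on LN-521 and 23.2, 24.8 and 24.7 CPM on LN-521+LN-221. The coatings overlapped, and the log2 fold change was 0.04 ± 0.08 (SE; 95% interval -0.13 to 0.20; edgeR adjusted p = 0.876). CCNE2 (ENSG00000175305) had 37 to 59 counts per library, and its values of 1.83, 2.07 and 2.37 CPM on LN-521 overlapped those of 2.17, 1.75 and 1.56 CPM on LN-521+LN-221. At this depth the interval of its difference was the widest of the members, -0.66 to 0.26 around -0.20 (log2; edgeR adjusted p = 0.740). Exons of CCNE2 overlap INTS8 on the other strand by 1629 bases, and INTS8 had 2028 to 2535 counts per library, so the CCNE2 value is uncertain. CCNE1 made up 93.8% ± 1.44 of the E-cyclin TPM on LN-521 and 94.1% ± 1.05 on LN-521+LN-221 (mean ± SD, n = 3 each).

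Of the kinases, CDK4 (ENSG00000135446, chromosome 12, 57747727 to 57756013, minus strand) and CDK6 (ENSG00000105810, chromosome 7, 92604921 to 92836594, minus strand) are the partners of the D cyclins. CDK4 was 83.6, 97.1 and 84.8 CPM on LN-521 and 90.5, 86.9 and 94.0 CPM on LN-521+LN-221, with a difference of 0.03 ± 0.07 (SE; 95% interval -0.11 to 0.17; edgeR adjusted p = 0.879). These ranges overlapped. CDK4 exons overlap TSPAN31 on the other strand by 1369 bases, where TSPAN31 had 422 to 545 counts against 1880 to 2583 for CDK4. CDK6 was 31.6, 28.99 and 26.2 CPM on LN-521 and 24.9, 23.8 and 24.2 CPM on LN-521+LN-221, so every LN-521 well was the higher one. Among all genes tested 19.9% had such non-overlapping values, and 2 of the 9 members did. The log2 fold change of CDK6 was -0.25 ± 0.08 (SE; 95% interval -0.42 to -0.08; unadjusted p = 0.00728), and it did not pass after adjustment over all genes (edgeR adjusted p = 0.142). With a correction for GC content it did pass (-0.29, edgeR adjusted p = 0.0153). By TPM the coatings overlapped for CDK6, at 4.15, 4.08 and 3.25 on LN-521 against 3.29, 3.23 and 2.58 on LN-521+LN-221.

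Per length, CDK4 exceeded CDK6 in every library, by 13.6 to 15.3 times on LN-521 and 18.0 to 23.7 times on LN-521+LN-221. CDK2 (ENSG00000123374, chromosome 12, 55966769 to 55972784, plus strand), the kinase of the E cyclins, had 38.7, 41.1 and 40.9 CPM on LN-521 and 39.3, 39.2 and 38.1 CPM on LN-521+LN-221. The difference, -0.05 ± 0.07 on the log2 scale (SE; 95% interval -0.19 to 0.09; edgeR adjusted p = 0.791), was within the spread of the wells. PMEL, on the other strand, overlaps CDK2 exons by 89 bases and had 2261 to 3649 counts per library.

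CDKN1B (ENSG00000111276, chromosome 12, 12715058 to 12722371, plus strand) encodes p27, an inhibitor of cyclin-CDK complexes. It was 59.6, 50.9 and 54.6 CPM on LN-521 and 53.5, 55.9 and 52.5 CPM on LN-521+LN-221. The LN-521+LN-221 wells lay inside the LN-521 range, and the difference was -0.03 ± 0.07 (SE; log2; 95% interval -0.17 to 0.12; edgeR adjusted p = 0.906). CDKN2C (ENSG00000123080, chromosome 1, 50960745 to 50974633, plus strand), which encodes p18, had 2, 0 and 2 counts on LN-521 and 3, 0 and 0 counts on LN-521+LN-221. It was not tested, and no difference was detectable at this depth, where 3 counts, the limit that a count of 0 allows, correspond to 0.112 to 0.146 CPM (counting error only). Without LN-521 replicate 1, the directions of CCND2 (0.0004), CDK4 (-0.008) and CDKN1B (0.03), none of them past the threshold with or without it, turned.

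**Figure D3:**
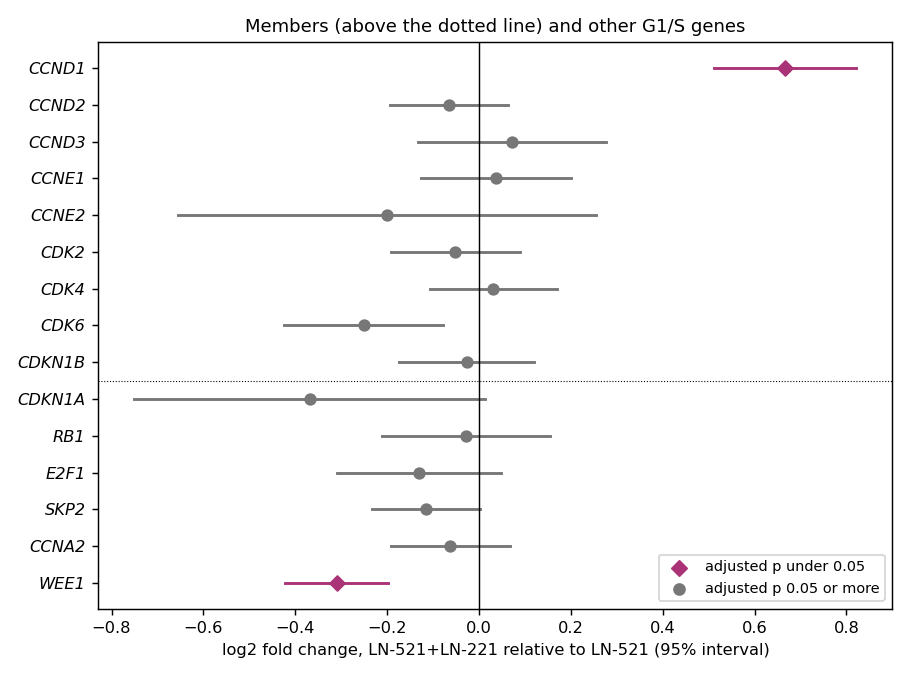
Log2 fold change between the coatings (x axis, above 0 where LN-521+LN-221 is higher) with its 95% interval for the 9 tested members, above the dotted line, and 6 other genes of the G1/S pathway, below it. Diamonds mark an adjusted p-value under 0.05 (edgeR), reached by CCND1 at 0.67 and WEE1 at -0.31.

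Ordered by mean TPM, the members on LN-521 ran from CDK4 (55.7 ± 5.83) and CCND2 (36.1 ± 6.13) through CDK2 (21.7 ± 1.16), CDKN1B (18.1 ± 3.85), CCND1 (15.2 ± 2.47) and CCNE1 (12.7 ± 0.991) to CCND3 (6.62 ± 0.384), CDK6 (3.83 ± 0.501), CCNE2 (0.843 ± 0.222) and CDKN2C (0.02), as mean ± SD of n = 3. On LN-521 the values of CDK2 and CDKN1B, of CDKN1B and CCND1, and of CCND1 and CCNE1 overlapped between neighbours. On LN-521+LN-221 CCND1, at 24.8 ± 0.921 TPM (SD, n = 3), ranked 3, above CDK2 (21.7 ± 0.759), CDKN1B (17.7 ± 1.01) and CCNE1 (13.6 ± 0.216), and no neighbours overlapped. The other members kept their order. CCND1 was 0.280, 0.287 and 0.250 times the CDK4 level on LN-521 against 0.407, 0.411 and 0.406 times on LN-521+LN-221. Against CDKN1B the CCND1 level was 0.769, 1.07 and 0.735 times on LN-521 against 1.41, 1.31 and 1.5 times on LN-521+LN-221. Neither ratio overlapped between the coatings. Within a coating, the coefficient of variation of the 9 tested members' CPM ran from 3.29% (CDK2) to 12.9% (CCNE2) on LN-521 and from 1.62% (CDK2) to 16.9% (CCNE2) on LN-521+LN-221.

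The other genes of the pathway were taken as 6 lists with 60 genes, of which 58 were tested. In them 1 gene passed the threshold, which was lower on LN-521+LN-221, and none was higher. That share, 1.72%, is near the 2.53% of all genes tested. An unadjusted p under 0.05 was reached by 6 of the 58, against 14.5% of all genes tested. The median log2 fold change of the 58 was -0.02.

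The gene that fell was WEE1, the kinase that places inhibitory phosphates on CDK1 and CDK2 and is best known for holding back mitosis. It was 151, 148 and 153 CPM on LN-521 and 125, 121 and 119 CPM on LN-521+LN-221, with no overlap. The log2 fold change was -0.31 ± 0.05 (SE; edgeR adjusted p = 0.00259). WEE1 did not pass with limma on log2(TPM + 1) (-0.26, limma adjusted p = 0.636) or log2(TPM + 0.1) (-0.27, limma adjusted p = 0.663), and its TPM overlapped between the coatings. The other 7 tested kinases, phosphatases and kinase partners acting on G1 CDKs, among them CDC25A and the CDK-activating kinase subunits CDK7, CCNH and MNAT1, did not pass.

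Among the other CDK inhibitors, CDKN1C (p57) was the most abundant per length. Its TPM were 39.0, 35.4 and 30.8 on LN-521 against 42.8, 43.6 and 36.7 on LN-521+LN-221. Set beside the CIP/KIP inhibitors CDKN1A and CDKN1B, it held 64.3% ± 3.63 of their summed TPM on LN-521 and 68.5% ± 1.11 on LN-521+LN-221 (mean ± SD, n = 3 each). CDKN1C differed by 0.21 ± 0.08 (SE; log2; edgeR adjusted p = 0.192) and passed with the GC correction, without or with the replicate block, and when LN-521 replicate 2 was left out. CDKN1A (p21), a p53 target, was 3.88, 3.01 and 3.05 CPM on LN-521 and 2.36, 2.51 and 2.79 CPM on LN-521+LN-221, a log2 difference of -0.37 ± 0.18 (SE; edgeR adjusted p = 0.367). The INK4 genes were scarce: CDKN2A, CDKN2B and CDKN2C had at most 8 counts in any library, and the 4 INK4 genes with CDKN2D summed to 1.01 to 1.90 TPM. CDKN3, a phosphatase in spite of its symbol, was at -0.08 ± 0.11 (SE; edgeR adjusted p = 0.794).

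Downstream of the G1 kinases, none of the 13 RB, E2F and DP genes passed (edgeR), and none had an unadjusted p under 0.05. RB1, which encodes the RB protein, was at -0.03 ± 0.09 (SE; 95% interval -0.21 to 0.15; edgeR adjusted p = 0.923) and E2F1 at -0.13 ± 0.08 (SE; 95% interval -0.31 to 0.05; edgeR adjusted p = 0.522). Without LN-521 replicate 1 the direction of RB1 turned (0.07, edgeR adjusted p = 0.683). Of the 14 E2F target genes of S phase entry none passed, 11 had a negative and 3 a positive log2 fold change, and 1 (MCM6, a helicase subunit, -0.19, edgeR adjusted p = 0.130) had an unadjusted p under 0.05. Their median was -0.05. CCNA2, the cyclin of S phase, was at -0.06 ± 0.06 (SE; 95% interval -0.19 to 0.07; edgeR adjusted p = 0.710). Among the 12 genes for the turnover of cyclins and p27 none passed and 1 (USP2, a deubiquitinase, 0.38, edgeR adjusted p = 0.185) had an unadjusted p under 0.05. SKP2, which marks p27 for degradation, was at -0.12 ± 0.06 (SE; 95% interval -0.23 to 0.0017; edgeR adjusted p = 0.353). The 7 other cyclins and CDKs did not pass, with an unadjusted p under 0.05 for CCNF (-0.21, edgeR adjusted p = 0.0758) and CCNA1 (-0.32, edgeR adjusted p = 0.306). CCNF passed with DESeq2, with no filter beyond 1 count, with the GC correction (without or with the replicate block) and without LN-521 replicate 1. MCM6 passed with the GC correction (without or with the block), without LN-521 replicate 1 and without LN-521 replicate 2. Of the genes named outside the members, CDKN1C, CDKN2A, CDKN2B, CDKN2D, CDKN3, CDC25A, CDK7, CCNH, MNAT1, MCM6, USP2, CCNF, CCNA1 and the cell type markers NANOG, TDGF1, POU5F1, LIN28A, COL1A1 and LUM were chosen after their values were seen.

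**Figure D4:**
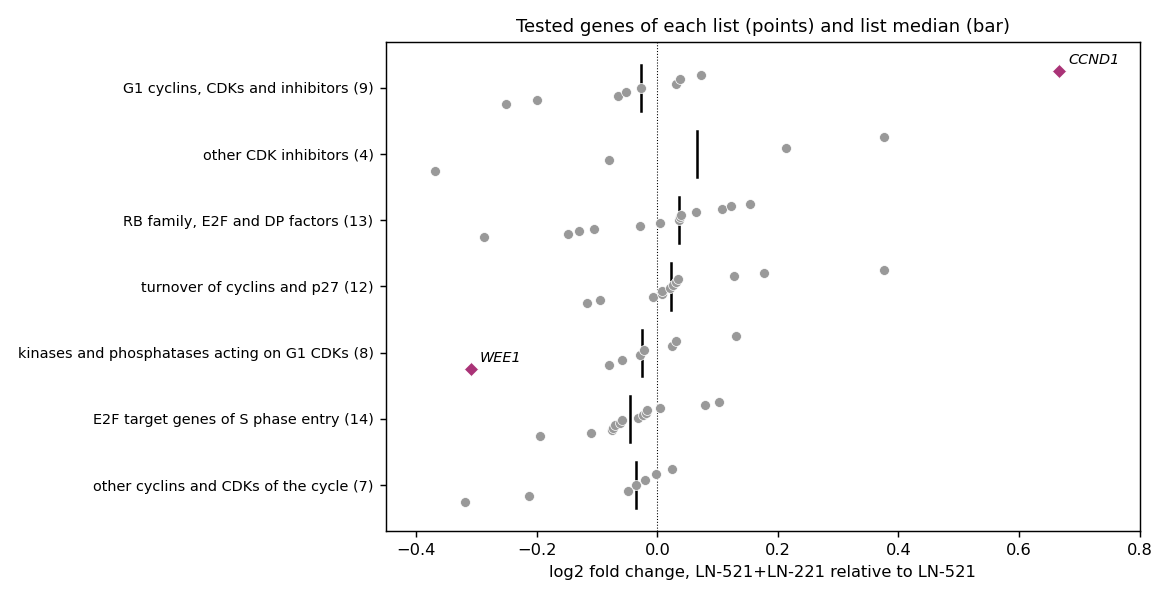
Log2 fold change (x axis, above 0 where LN-521+LN-221 is higher) for every tested gene of the members and of the 6 pathway lists, with the number tested in brackets and the median of each list as a bar. CCND1 (0.67) and WEE1 (-0.31), drawn as diamonds, are the genes with an adjusted p-value under 0.05.

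The genes whose log2 CPM followed CCND1 most closely over the 6 libraries, out of 10082 genes with a symbol and a mean of at least 10 CPM, were CYP26A1 (Pearson r = 0.997), FRZB (r = 0.997) and FAT1 (r = 0.997). These are a retinoic acid hydroxylase, a secreted Wnt-binding protein and a large atypical cadherin. Their log2 fold changes were 1.18 ± 0.15 (SE; edgeR adjusted p = 0.0102), 1.35 ± 0.12 (SE; edgeR adjusted p = 8.23e-06) and 0.47 ± 0.05 (SE; edgeR adjusted p = 6.28e-05), so the difference between the coatings is part of these correlations. For CCND2 the closest were WAC-AS1 (r = 0.977), ABLIM1 (r = 0.975) and ZNF625 (r = 0.973), with log2 fold changes of -0.08, -0.02 and -0.04 that did not pass (edgeR adjusted p = 0.741, 0.906 and 0.880). With 6 libraries that share 2 coatings, these values only describe the likeness of the profiles.

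**Figure D5:**
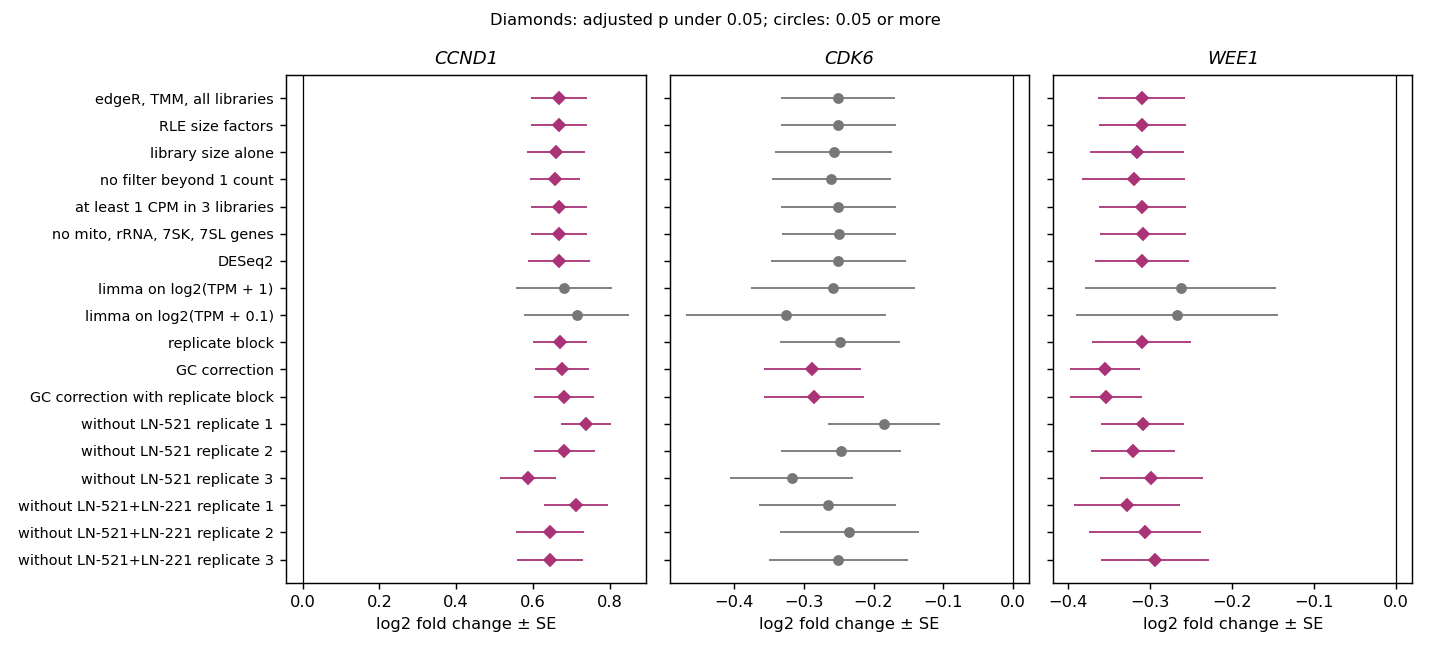
Log2 fold change ± SE (x axis) of CCND1, CDK6 and WEE1 under each processing setting and with each library left out (y axis), with diamonds for an adjusted p-value under 0.05. CCND1 stays between 0.59 and 0.74 throughout and loses the threshold in the limma fits on TPM, while CDK6 reaches it with the GC correction alone and with the GC correction and the replicate block.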

How the data were processed

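Total RNA libraries were made from 700 ng RNA with a stranded kit and read as 150 bp pairs, per the labels' protocols. The authors deposited a gene table of estimated counts (expected counts, of which 6.08% to 6.67% per library are not whole) and a TPM table, with cutadapt, STAR 2.5.2b, RSEM 1.2.31 and build hg38 named in the submitters' processing notes; the annotation and use of strand are not given in the sources used here.

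Counts were rounded, filtered with filterByExpr (minimum count 10), TMM-scaled and tested with edgeR 4.0.16 (quasi-likelihood, robust) in R 4.3.3 on all 6 libraries. P-values were Benjamini-Hochberg adjusted over 17608 genes, with a threshold of 0.05, and SE is the absolute log2 fold change over the square root of F. CPM are rounded counts over TMM-scaled library size. Symbols came from a table holding 93.1% of the IDs, and locations and exon overlaps from GENCODE 29. Levels were compared between genes by the authors' TPM, of which mitochondrial, ribosomal, 7SK and 7SL RNAs took 30.7% to 37.9%.

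The members and lists were chosen with earlier results of these data known. Named genes are the members, the listed genes past the threshold, CDKN1A, RB1, E2F1, CCNA2 and SKP2, and the 3 genes most like CCND1 and CCND2; antisense partners are named for their exon overlap, and other genes were chosen after their values were seen. Alternatives were RLE and library-size scaling, other filters, DESeq2 1.42.0, limma 3.58.1 on log-transformed TPM (pseudocount 1 or 0.1, genes with at least 1 TPM in any 3 libraries), a lowess GC correction (span 0.3), the replicate number as a block and leaving out each library. The scripts were tested on simulated data.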

Additional observations from a re-analysis of the deposited data

How the results depend on the processing

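The CCND1 difference kept its direction in all 17 alternatives and its side of the threshold in 15. It was the only member called (1) in the main test and with RLE scaling, library size alone, either other filter, removal of abundant RNAs, DESeq2, the replicate block, and each library left out. With limma on log2(TPM + 1) or log2(TPM + 0.1), 0 members passed (CCND1 unadjusted p = 6.11e-04 and 0.00131). GC correction without or with the block gave 2, adding CDK6. The pathway lists gave 2 without a filter or with DESeq2, 0 in both TPM fits, 4 after GC correction without or with the block, and 1 to 4 with a library left out, with 4 without LN-521 replicate 1 and 3 without LN-521 replicate 2. Over all genes the 446 calls (55.2% higher) were 718 without a filter (46.8% higher), 33 (81.8% higher) and 16 in the TPM fits, 911 with the GC correction, 963 with the correction and the block, and 194 to 1179 with a library left out: 1179 without LN-521 replicate 1, 201 without its replicate 3, and 290, 198 and 194 without LN-521+LN-221 replicates 1, 2 and 3.

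The replicate numbers recur in both coatings. Deviations from the mean of each coating correlated at 0.088, -0.046 and -0.031 for wells of the same number. With 3 wells per coating these values cannot settle whether the wells were paired. With the replicate block 646 genes passed, and CCND1 (0.67, edgeR adjusted p = 4.71e-09) and WEE1 (-0.31, edgeR adjusted p = 4.71e-04) remained the genes called among members and lists.

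Directions turned for values near 0 that no setting called: CDK2 was 0.0048 and 0.0050 and RB1 0.0042 and 0.0072 with log2(TPM + 1) and log2(TPM + 0.1). With a library left out CCND2 ranged from -0.11 to 0.00040, CDK4 from -0.0081 to 0.11, CDKN1B from -0.078 to 0.034 and RB1 from -0.11 to 0.065. The cause was not tested. Removing the abundant RNAs raised TPM by 1.44 to 1.61 times; as each library is multiplied by a single factor, this cannot alter a share within a family and is no check of it.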
